A study of Mus musculus with 32 samples.

Results

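The enzymes that add and remove methyl and acetyl groups on histones were followed in single mouse oocytes. The members were the genes whose symbol starts with Kmt, Setd, Kdm or Hdac, or with Kat and a digit, together with Ehmt1, Ehmt2, Ezh1, Ezh2, Suv39h1, Suv39h2, Dot1l, Nsd1, Nsd2, Nsd3, Ep300 and Crebbp. This rule takes 62 of the 13175 genes measured. Of these, 38 are writers, comprising 28 methyltransferases and 10 acetyltransferases, and 24 are erasers, comprising 17 demethylases and 7 deacetylases. The rule goes by symbol and uses no measured value. RNA of 32 single oocytes of wild-type (WT) mice was sequenced. The 12 MII oocytes of vitrified follicles and the 12 MII oocytes of fresh follicles were collected on day 9 after ovulation had been induced with the hormone hCG. The 4 GV oocytes of vitrified follicles and the 4 GV oocytes of fresh follicles were collected on day 8, before that step. In all groups, immature preantral follicles had been grown in a follicle culture that the labels call eIVFG, and in the vitrified groups they had been vitrified, that is cooled to a glass-like state, beforehand. GV (germinal vesicle) oocytes are arrested in meiotic prophase, and MII (metaphase II) oocytes are the mature eggs that await fertilization. No group here was taken straight from an ovary.

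Writers and erasers set the marks on histone tails by which chromatin is opened or closed. Methylation of histone H3 lysine residues can mark active genes (H3K4, H3K36) or silent ones (H3K9, H3K27), and acetylation goes with open chromatin. A mouse oocyte stops transcribing when it is fully grown and completes meiosis on stored mRNA, so its transcripts of these enzymes are also what it hands to the embryo. Several of the enzymes are known from mouse oocytes: Kmt2b and Kdm1b act on H3K4 in growing oocytes, Setdb1 on H3K9, and Hdac2 is the main class I deacetylase there.

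The library kit primes on poly(A) tails, so each value is a level of polyadenylated transcript relative to the other transcripts of that oocyte. The annotated 3′ ends of the members are shown for this reason. The stretches below are 30 bases of the transcript strand near the end of the annotated transcript, from GENCODE M21 on GRCm38 (mm10). Capitals mark the polyadenylation signals AATAAA or ATTAAA and the cytoplasmic polyadenylation elements TTTTAT or TTTTAAT, which lengthen tails of stored mRNA in maturing oocytes. Suv39h2 (chr2:3455826-3455855, minus strand) and Suv39h1 (chrX:8061188-8061217, minus strand) are shown because this pair of H3K9 methyltransferases differed in opposite directions between stages. Ezh2 (chr6:47530160-47530189, minus strand), Kat7 (chr11:95274271-95274300, minus strand) and Kdm1a (chr4:136550565-136550594, minus strand) were higher in MII oocytes, and Kat14 (chr2:144407606-144407635, plus strand) was lower.
Suv39h2: ggctttttTTTTAATaacagAATAAAcacc
Suv39h1: caaaaataactacctgaagaAATAAAtaca
Ezh2: gctatgaatatttaataaccAATAAAcata
Kat7: gtgctcttctgtatctactcAATAAAgcat
Kdm1a: tttTTTTAATatattttgagAATAAAactt
Kat14: aaaagcatcagatattctccAATAAAaatc

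Within the last 120 annotated bases, searched on the transcript strand only and with overlapping matches allowed, 18 of 59 members with such a window (30.5%) held TTTTAT or TTTTAAT, beside 22.3% of 12103 genes of the table. The element was in 5 of the 12 such members that were higher in MII oocytes after both treatments, in 1 of the 7 that were lower after both, and in 11 of the 36 other tested members. The same split over all genes was not counted, and no link between the element and the direction was tested. AATAAA or ATTAAA was in 46 of 59 members and in 82.4% of all genes. These counts describe annotated ends, and the ends used in these oocytes were not measured.

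Library totals ran between 5300208 and 12206512 counts in MII oocytes and between 10357543 and 17687247 in GV oocytes. The members together took between 0.307% and 0.517% of the counts of an MII oocyte and between 0.490% and 0.822% of a GV oocyte. All 10 oocyte markers were present in every group, with a summed level between 10286 and 21237 CPM (counts scaled to a library of 1000000 with TMM factors over all 32 oocytes, as for every CPM value here). Markers of cumulus and granulosa cells (10 of 12 in the table) summed to between 46.3 and 466 CPM in vitrified MII oocytes, between 46.0 and 2555 CPM in fresh MII oocytes and between 36.4 and 77.6 CPM in GV oocytes. Theca and stroma markers (2 of 4 in the table) stayed at or under 3.82 CPM, and the 1 of 3 blood markers in the table at or under 11.2 CPM. MII fresh replicate 11 was least like its stage, with a mean Spearman rho of 0.796 to the other MII oocytes, and held the highest cumulus and granulosa sum. GV vitrified replicate 1 (0.804) and GV fresh replicate 3 (0.847) were least like the other GV oocytes. Stage coincides in these files with the kind of count (estimated counts in MII oocytes, whole counts in GV oocytes) and with the library numbers, so these cannot be told apart in any comparison of stages.

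Summed over all members of a side, writers were lower and erasers higher in MII than in GV oocytes. Only genes with a total of at least 10 counts over MII oocytes are listed in these data. Any enzyme with fewer is missing from these sums, and from the counts and medians below, whatever its GV level. The same holds for other genes in the shares and medians over all genes. The 38 writers summed to 3119 ± 267 CPM in vitrified MII oocytes (SD, n = 12) and 4481 ± 494 CPM in the GV oocytes of vitrified follicles (SD, n = 4). In fresh follicles they summed to 3048 ± 402 CPM in MII oocytes (SD, n = 12) and 4707 ± 510 CPM in GV oocytes (SD, n = 4). The highest MII oocyte, at 3535 CPM, lay below the lowest GV oocyte, at 4031 CPM. The 24 erasers summed to 1371 ± 228 CPM in vitrified MII oocytes and 778 ± 52.8 CPM in vitrified GV oocytes, and to 1382 ± 226 CPM in fresh MII oocytes and 708 ± 177 CPM in fresh GV oocytes. Every MII oocyte, from 1017 CPM up, lay above every GV oocyte, which reached 915 CPM. With scaling by total count alone the eraser sums of MII and GV oocytes overlapped, with 861 to 1842 CPM in MII oocytes and 508 to 1245 CPM in GV oocytes, while the writer sums still did not.

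The make-up of the writers' sum differed by stage. Setd4, a SET-domain methyltransferase, made up 0.784% of that sum in vitrified MII oocytes and 45.0% in vitrified GV oocytes, and 1.13% in fresh MII oocytes and 50.03% in fresh GV oocytes (means over oocytes). Ezh2, a catalytic subunit of the H3K27 methyltransferase complex PRC2, made up 42.0% in vitrified MII oocytes and 11.0% in vitrified GV oocytes, and 37.9% in fresh MII oocytes and 9.22% in fresh GV oocytes. The other 36 writers summed to 1780 ± 248 CPM in vitrified MII oocytes, 1965 ± 180 CPM in vitrified GV oocytes, 1871 ± 366 CPM in fresh MII oocytes and 1926 ± 349 CPM in fresh GV oocytes, and their ranges overlapped. With total count alone their means were 1604 CPM in vitrified MII oocytes, 2482 CPM in vitrified GV oocytes, 1822 CPM in fresh MII oocytes and 2479 CPM in fresh GV oocytes.

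**Figure D1:**
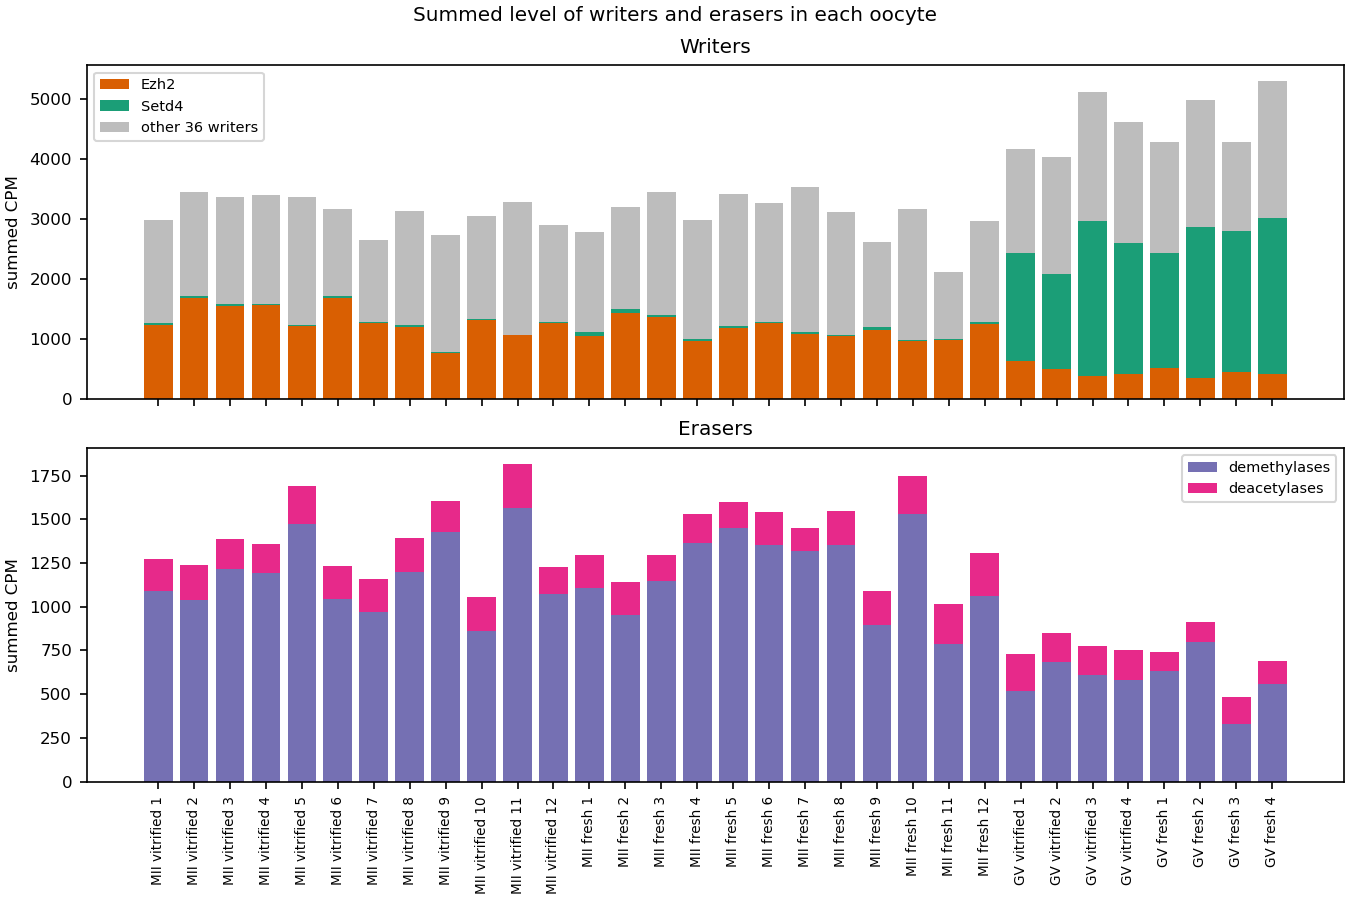
Summed level of the 38 writers (top) and the 24 erasers (bottom) in each of the 32 oocytes, in CPM on linear axes that start at 0, with MII oocytes left of GV oocytes and vitrified left of fresh. Setd4 (green) fills 39.2% to 55.1% of the writers' bar in GV oocytes and at most 2.17% in MII oocytes.

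Per kilobase of annotated exon, Ezh2 was the highest member in MII oocytes, at 197 CPM per kb in vitrified and 171 CPM per kb in fresh ones, and Setd4 was the highest in GV oocytes, at 378 CPM per kb in vitrified and 438 CPM per kb in fresh ones. Setd4 stood at rank 136 of 13040 genes in vitrified and rank 121 in fresh GV oocytes. In MII oocytes Kat7, Kdm6a, Suv39h2 and Kdm1b came next among the members, at 55.8, 43.2, 35.98 and 31.4 CPM per kb in vitrified ones and in the same order in fresh ones. In GV oocytes Kat8, Ezh2, Kat14 and Setdb1 came next, at 79.2, 72.4, 66.2 and 28.2 CPM per kb in vitrified ones. In fresh GV oocytes Kat14 (65.4 CPM per kb) stood before Ezh2 (63.8 CPM per kb). The median member was at 2.81 CPM per kb in vitrified MII oocytes, 2.94 in vitrified GV oocytes, 3.37 in fresh MII oocytes and 2.99 in fresh GV oocytes. The median of all genes was 1.23, 2.20, 1.51 and 2.20 CPM per kb in the same groups.

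The filter on low counts dropped 4 members in the fit of all oocytes, and 58 were tested. The acetyltransferase Kat2b, the demethylase Kdm4d and the methyltransferases Kmt2a and Setd7 reached at most 2.30, 2.70, 3.29 and 0.614 CPM in any oocyte, and each was at 0 in most oocytes. The median coefficient of variation between oocytes of a group, over members with a mean of at least 16 CPM, was 26.8% for writers and 30.04% for erasers in vitrified MII oocytes, and 34.9% for writers and 32.9% for erasers in fresh MII oocytes. In vitrified GV oocytes it was 28.6% for writers and 26.8% for erasers, and in fresh GV oocytes 31.99% for writers and 42.9% for erasers.

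The comparison of MII with GV oocytes asks which of these transcripts differ across maturation, after each treatment. In vitrified follicles 15 of 58 members were higher in MII oocytes, 11 were lower and 32 did not pass (edgeR's quasi-likelihood test, Benjamini-Hochberg adjusted p under 0.05). That is 44.8% of the members, beside 57% of all 11470 genes tested (23.3% higher, 33.7% lower). In fresh follicles 18 were higher, 10 lower and 30 did not pass, 48.3% of the members beside 52.6% of all genes (22.8% higher, 29.8% lower). At an unadjusted p under 0.05 the shares of all genes were 61% in vitrified and 57.3% in fresh follicles, with 29 and 30 members. The share of members called was close to or under that of all genes. Both stage comparisons use separate oocytes. Of the members called higher, 14 were called after both treatments, 93.3% of the vitrified list and 77.8% of the fresh list. Of those called lower, 8 were shared, 72.7% of the vitrified list and 80% of the fresh list. Over all genes, those called higher after both treatments made up 84.95% of the vitrified list and 87.0% of the fresh list, and those called lower after both made up 81.1% of the vitrified list and 91.8% of the fresh list.

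The counts were taken for writers and erasers apart, and the difference between the 2 sides was not tested. Enzymes under the floor on MII counts given above are missing from both sides. Among 35 writers, 8 were higher and 8 lower in vitrified follicles, with a median log2 fold change of -0.14, and 9 were higher and 8 lower in fresh follicles, with a median of -0.02. Among 23 erasers, 7 were higher and 3 lower in vitrified follicles (median 0.23), and 9 were higher and 2 lower in fresh follicles (median 0.66). Calls made up 45.7% of writers and 43.5% of erasers in vitrified follicles, beside 57% of all genes. In fresh follicles they made up 48.6% and 47.8%, beside 52.6%. The median over all genes was -0.34 in vitrified and -0.23 in fresh follicles. With total count alone the all-gene median fell by 0.47 in vitrified and by 0.38 in fresh follicles, and with DESeq2's size factors by 0.11 and 0.15. With total count alone, 1945 of all genes were then higher and 4703 lower in vitrified follicles, against 2678 and 3861 with TMM, and 1992 higher and 4142 lower in fresh follicles, against 2615 and 3413 with TMM. The eraser median then became -0.22 in vitrified follicles, with 5 erasers higher and 5 lower, and 0.21 in fresh follicles, with 8 higher and 3 lower. The writer median became -0.60 in vitrified follicles, with 4 higher and 14 lower, and -0.44 in fresh follicles, with 5 higher and 9 lower.

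**Figure D2:**
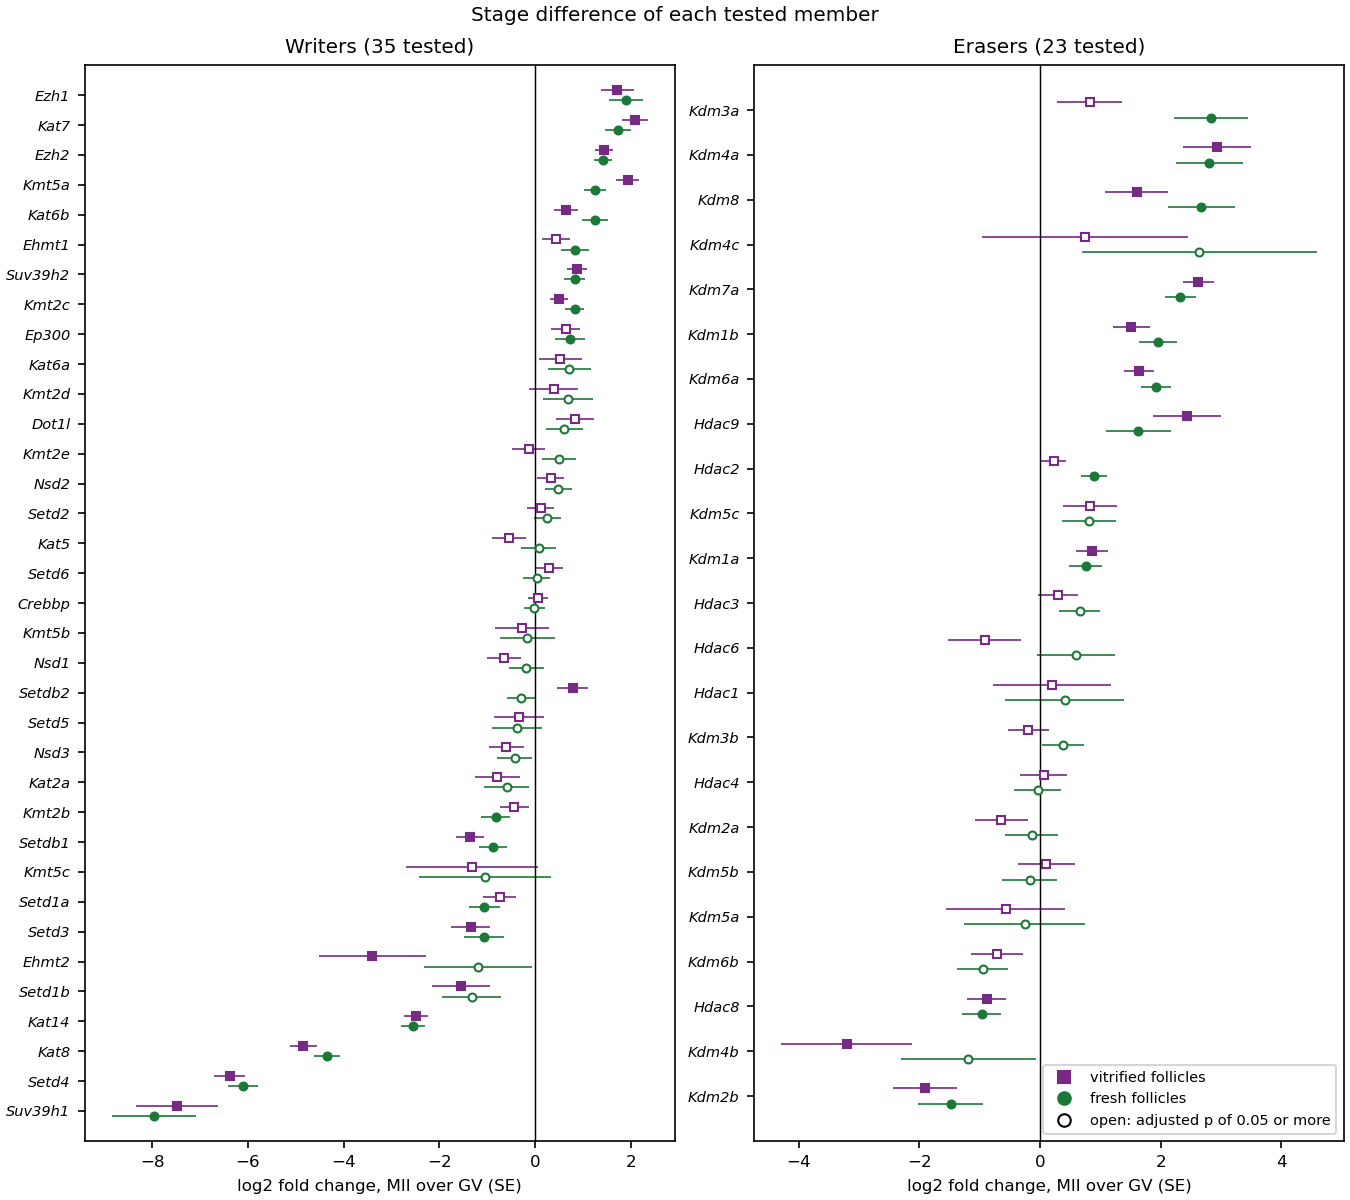
Log2 fold change, MII over GV, of each of the 35 writers (left) and 23 erasers (right) tested, with its standard error as a whisker. Squares are vitrified and circles fresh follicles, and filled symbols have an adjusted p under 0.05. Writers run from Suv39h1 at -7.49 (vitrified) and -7.96 (fresh) to Kat7 at 2.08 (vitrified) and, among the erasers, from Kdm4b at the low end in vitrified follicles to Kdm4a at 2.93 (vitrified).

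A set of 12 members kept their call in every alternative that tested them, after both treatments. Of these, 8 were higher in MII oocytes, namely the writers Ezh1, Ezh2, Kat7 and Kmt5a and the erasers Kdm1b, Kdm4a, Kdm6a and Kdm7a. The 4 that were lower, Setd4, Suv39h1, Kat8 and Kat14, were all writers. Writers made up 35 of the 58 members tested. They gave 8 of the 11 lower calls in vitrified and 8 of the 10 in fresh follicles. How many of all genes kept a call throughout was not counted. Only Setd4 and Kat8 could be tested with genes of whole MII values only. Of 24 MII oocytes, values were not whole in 24 for Kdm1b, 23 for Ezh2, 18 for Kat7, 17 for Suv39h1 and 15 for Kdm6a. The number was 12 for Kdm4a and Kdm7a, 8 for Ezh1 and Kmt5a, and 5 for Kat14.

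Setd4 (chr16:93583457-93604063) differed most in absolute level. It was at 11.1, 23.5 and 47.0 CPM (lowest, median and highest) in vitrified MII oocytes, against 1805, 1578, 2574 and 2171 CPM in vitrified GV oocytes. In fresh follicles it was at 11.7, 30.6 and 63.6 CPM in MII oocytes and at 1929, 2523, 2357 and 2607 CPM in GV oocytes. No MII oocyte came near a GV oocyte. The log2 fold change was -6.39 ± 0.32 (SE) in vitrified follicles (adjusted p = 1.27e-17) and -6.11 ± 0.32 in fresh follicles (adjusted p = 4.12e-17). Its values were whole in all MII oocytes.

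Suv39h1 (chrX:8061171-8074760) trimethylates H3K9 at heterochromatin together with Suv39h2. After rounding it was at 0 in 6 of 12 vitrified MII oocytes (4 deposited at 0) and reached 6.61 CPM in 1, against 246, 139, 75.0 and 105 CPM in vitrified GV oocytes. After rounding it was at 0 in 5 of 12 fresh MII oocytes (3 deposited at 0) and reached 2.30 CPM, against 58.3, 38.2, 199 and 92.6 CPM in fresh GV oocytes. The fitted log2 fold changes were -7.49 ± 0.85 in vitrified follicles (adjusted p = 2.85e-09) and -7.96 ± 0.88 in fresh ones (adjusted p = 2.11e-09), and at such low MII levels they depend on the prior count. Its values were not whole in 17 of 24 MII oocytes, and 14.6% of its exon bases overlap the antisense gene Gm14820, whose reads cannot be told apart without strand. Suv39h2 (chr2:3455815-3475031) stood at 101, 161 and 209 CPM in vitrified MII oocytes, against 102, 85.9, 80.3 and 78.0 CPM in vitrified GV oocytes. It stood at 80.3, 155 and 194 CPM in fresh MII oocytes, against 85.6, 95.9, 92.5 and 62.1 CPM in fresh GV oocytes. Its ranges overlapped, and it was higher by 0.88 ± 0.21 in vitrified (adjusted p = 0.000649) and by 0.82 ± 0.21 in fresh follicles (adjusted p = 0.00132) on the log2 scale. With total count alone these were 0.41 (adjusted p = 0.11) and 0.44 (adjusted p = 0.0968).

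Kat8 (chr7:127912516-127925837), which acetylates H4K16, was at 3.54, 7.91 and 12.2 CPM in vitrified MII oocytes and at 219, 232, 203 and 263 CPM in vitrified GV oocytes. In fresh follicles it was at 3.91, 10.7 and 18.8 CPM in MII oocytes and at 169, 211, 242 and 196 CPM in GV oocytes. The groups lay far apart, with log2 fold changes of -4.85 ± 0.28 in vitrified (adjusted p = 5.42e-16) and -4.35 ± 0.28 in fresh follicles (adjusted p = 6.43e-15). Kat14 (chr2:144368983-144407676), a subunit of the ATAC acetyltransferase complex, was at 30.9, 50.1 and 82.6 CPM in vitrified MII oocytes, against 203, 276, 484 and 282 CPM in vitrified GV oocytes. It was at 22.3, 52.3 and 88.8 CPM in fresh MII oocytes, against 323, 308, 176 and 423 CPM in fresh GV oocytes. It fell without overlap, by 2.49 ± 0.25 and 2.56 ± 0.25 on the log2 scale (adjusted p = 2.8e-10 in vitrified and 1.84e-10 in fresh follicles). Of its exon bases 14.7% are shared with Pet117 on the same strand.

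Among the writers that were higher, Ezh2 (chr6:47530139-47595341) was the most abundant. It was at 761, 1263 and 1687 CPM in vitrified MII oocytes, against 624, 501, 387 and 420 CPM in vitrified GV oocytes, and at 957, 1112 and 1436 CPM in fresh MII oocytes, against 507, 343, 445 and 410 CPM in fresh GV oocytes. Every MII oocyte was above every GV oocyte. The log2 fold change was 1.44 ± 0.19 in vitrified (adjusted p = 4.54e-08) and 1.42 ± 0.19 in fresh follicles (adjusted p = 7.24e-08). Its paralog Ezh1 (chr11:101191115-101226463) averaged 88.7 ± 26.2 CPM in vitrified MII oocytes and 26.999 ± 12.5 CPM in vitrified GV oocytes, and 97.6 ± 31.6 CPM in fresh MII oocytes and 26.2 ± 5.92 CPM in fresh GV oocytes. The ranges of Ezh1 overlapped slightly, and it was higher by 1.71 ± 0.34 (adjusted p = 6.33e-05) in vitrified and by 1.90 ± 0.35 (adjusted p = 2.02e-05) in fresh follicles.

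Kat7 (chr11:95274259-95310246), the catalytic subunit of the HBO1 acetyltransferase complex, was at 200.3, 303 and 391 CPM in vitrified MII oocytes, against 40.6, 83.03, 71.8 and 96.9 CPM in vitrified GV oocytes. It was at 182, 262 and 396 CPM in fresh MII oocytes, against 75.9, 109, 33.3 and 105 CPM in fresh GV oocytes. The stages did not overlap, with log2 fold changes of 2.08 ± 0.27 in vitrified (adjusted p = 5.22e-08) and 1.73 ± 0.27 in fresh follicles (adjusted p = 1.22e-06). Kmt5a (chr5:124439930-124462308), which monomethylates H4K20, averaged 147 ± 29.6 CPM in vitrified MII oocytes and 38.5 ± 4.62 CPM in vitrified GV oocytes, a log2 fold change of 1.93 ± 0.24 (adjusted p = 1.87e-08). It averaged 123 ± 29.2 CPM in fresh MII oocytes and 51.2 ± 14.5 CPM in fresh GV oocytes, a log2 fold change of 1.26 ± 0.23 (adjusted p = 1.97e-05), again with no overlap. Kat6b, the catalytic subunit of the MORF complex, was at 69.8 ± 11.6 CPM in vitrified MII oocytes and 44.7 ± 4.33 CPM in vitrified GV oocytes, and at 98.9 ± 34.6 CPM in fresh MII oocytes and 41.5 ± 12.7 CPM in fresh GV oocytes. Its log2 fold change was 0.64 ± 0.26 in vitrified (adjusted p = 0.0323) and 1.25 ± 0.27 in fresh follicles (adjusted p = 0.000174). The vitrified call was lost without GV vitrified replicate 1, 3 or 4 (adjusted p = 0.0504, 0.0778 and 0.0878). It was also lost with total count alone (0.17, adjusted p = 0.617), with DESeq2's size factors (0.53, adjusted p = 0.057) and with MII library numbers under 20 (0.60, adjusted p = 0.0608).

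**Figure D3:**
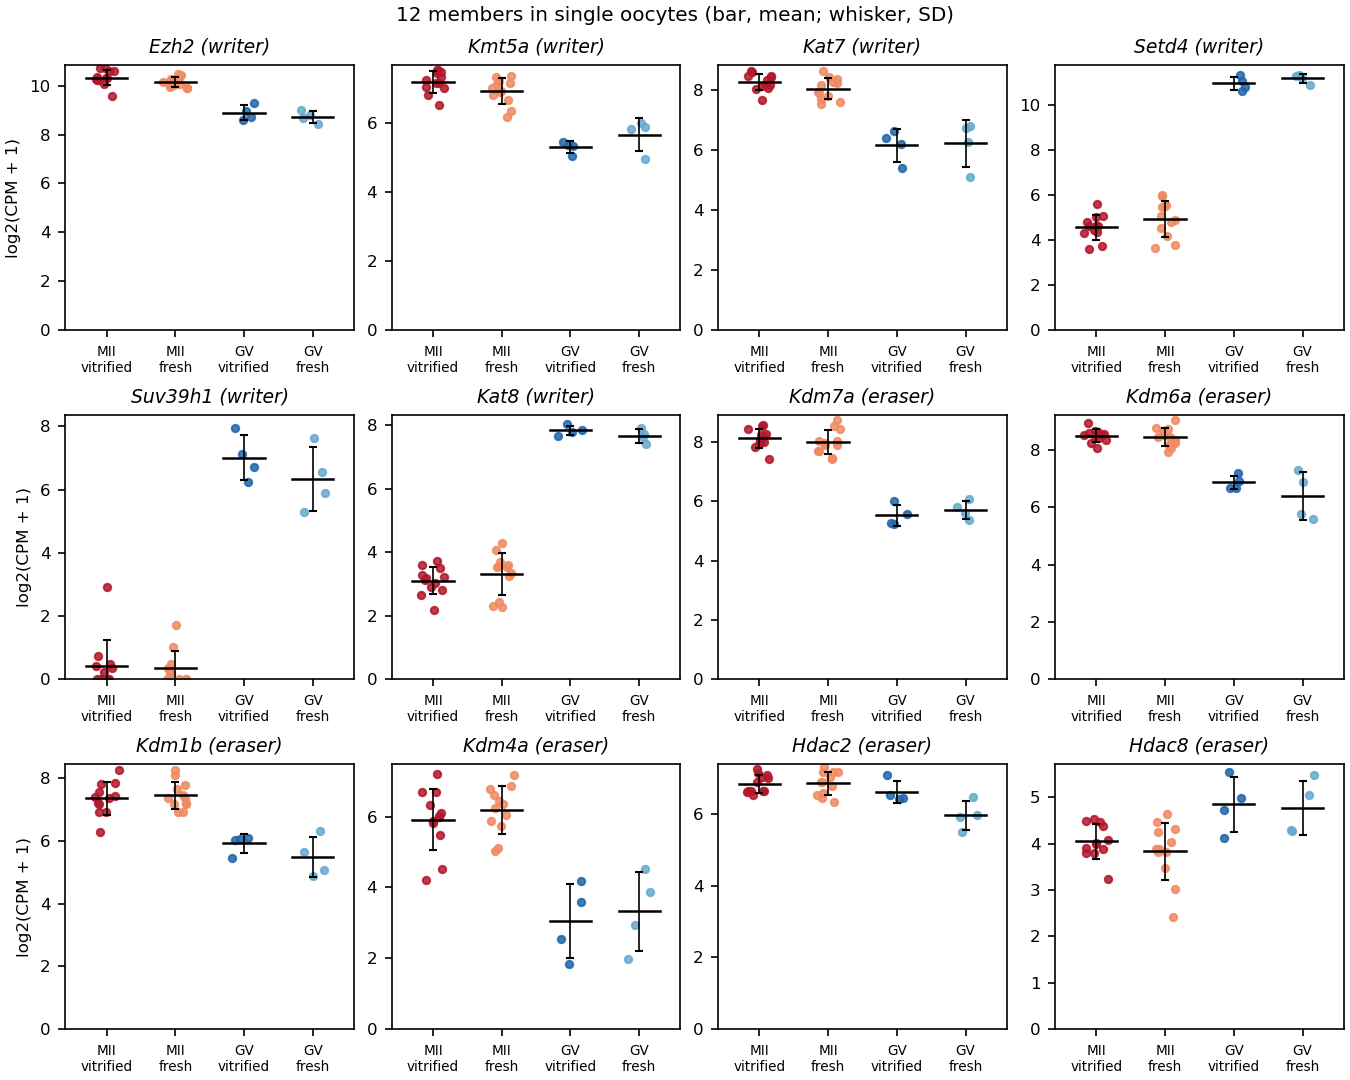
Level of 6 writers and 6 erasers in each oocyte, as log2(CPM + 1), with MII vitrified, MII fresh, GV vitrified and GV fresh oocytes from left to right (points, 12, 12, 4 and 4 oocytes), the bar at the mean and the whisker at the SD. Setd4, Suv39h1 and Kat8 lie lower in all MII oocytes than in any GV oocyte, and Ezh2, Kat7, Kmt5a, Kdm7a and Kdm6a lie higher in all of them. Kdm1b and Kdm4a lie higher in all MII oocytes of a treatment than in any GV oocyte of the same treatment.

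The H3K4 methyltransferases went in no common direction. Kmt2c, which monomethylates H3K4 at enhancers, was the only one called higher, by 0.50 ± 0.20 (adjusted p = 0.0291) in vitrified and 0.82 ± 0.20 (adjusted p = 0.000726) in fresh follicles. With total count alone its log2 fold change was -0.00 (adjusted p = 0.993) in vitrified and 0.41 (adjusted p = 0.104) in fresh follicles. The vitrified call was also lost with DESeq2 (adjusted p = 0.0507), with its size factors (adjusted p = 0.0702), using MII library numbers of 20 and over (adjusted p = 0.112), without GV vitrified replicate 1 or 4 (adjusted p = 0.0528 and 0.115) and without MII vitrified replicate 3 or 5 (adjusted p = 0.051 and 0.05). Kmt2b averaged 28.7 ± 4.25 CPM in vitrified MII oocytes and 38.8 ± 16.3 CPM in vitrified GV oocytes, which did not pass (adjusted p = 0.237). It averaged 28.8 ± 10.3 CPM in fresh MII oocytes and 51.2 ± 29.5 CPM in fresh GV oocytes, lower by a log2 fold change of -0.83 ± 0.30 (adjusted p = 0.0211). That call was lost without GV fresh replicate 2 (adjusted p = 0.0633) or 4 (adjusted p = 0.297), with MII library numbers under 20 (-0.53, adjusted p = 0.192) and in a fit of the 2 fresh groups alone (adjusted p = 0.0506). Kmt2b passed in vitrified follicles with total count alone (-0.97, adjusted p = 0.0104). Setd1a had a log2 fold change of -0.74 ± 0.34 in vitrified (adjusted p = 0.0576) and -1.06 ± 0.33 in fresh follicles (adjusted p = 0.00731). Its fresh call was lost without GV fresh replicate 4 (adjusted p = 0.173). Its vitrified value passed without GV vitrified replicate 1 (adjusted p = 0.00603) or MII vitrified replicate 1 (adjusted p = 0.0402). It passed too without 4 MII oocytes, fresh replicates 1 and 11 and vitrified replicates 1 and 12 (adjusted p = 0.0495). These hold the highest cumulus and granulosa sums, in fresh replicate 11 and vitrified replicate 12. MII vitrified replicate 7, at 165 CPM, was kept although it lay above vitrified replicate 1 (126 CPM) and fresh replicate 1 (114 CPM). Of the exon bases of Setd1a, 51.8% are shared with Gm49388 on the same strand. The vitrified value of Setd1a also passed with DESeq2 (adjusted p = 0.0291), with its size factors (adjusted p = 0.03) and with total count alone (-1.31, adjusted p = 0.0015), and the fresh call was lost with MII library numbers under 20 (-0.79, adjusted p = 0.105). Its paralog Setd1b was lower in vitrified follicles, at 2.69 ± 1.80 CPM in MII and 7.93 ± 4.72 CPM in GV oocytes (log2 fold change -1.55 ± 0.61, adjusted p = 0.0306), and lost that call without GV vitrified replicate 3 or 4 (adjusted p = 0.198 and 0.0557), using MII library numbers of 20 and over (-1.29, adjusted p = 0.108) and with only the genes whose MII values were all whole (-0.71, adjusted p = 0.378). In fresh follicles Setd1b gave -1.33 ± 0.61 (adjusted p = 0.068) and passed without GV fresh replicate 3 (adjusted p = 0.0493) or MII fresh replicate 5 (adjusted p = 0.0404), with DESeq2 (adjusted p = 0.0356), with its size factors (adjusted p = 0.0371), with total count alone (-1.74, adjusted p = 0.022) and using MII library numbers of 20 and over (-2.42, adjusted p = 0.00606). Kmt2d gave 0.38 ± 0.52 in vitrified and 0.69 ± 0.53 in fresh follicles and was not called, except with MII library numbers under 20 in fresh follicles (1.19, adjusted p = 0.0494).

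Of the 6 H3K9 methyltransferases, 5 were called in vitrified follicles (2 higher, 3 lower) and 4 in fresh follicles (2 higher, 2 lower). That is 83.3% and 66.7% of a small set, beside 57% and 52.6% of all genes, and the difference was not tested. Setdb1, which silences retroelements through H3K9, was at 36.8, 73.6 and 118 CPM in vitrified MII oocytes, against 202, 210, 194 and 168 CPM in vitrified GV oocytes. These did not overlap, and the log2 fold change was -1.36 ± 0.29 (adjusted p = 0.000127). In fresh follicles it was at 46.7, 106 and 188 CPM in MII oocytes and 186, 246, 101 and 199 CPM in GV oocytes, with overlap (log2 fold change -0.88 ± 0.29, adjusted p = 0.0113, adjusted p = 0.076 without GV fresh replicate 2, and -0.60 with adjusted p = 0.0829 with MII library numbers under 20). Ehmt1 was higher in fresh follicles by 0.83 ± 0.30 (adjusted p = 0.0201), a call lost without GV fresh replicate 2 or 3 (adjusted p = 0.083 and 0.0761), with total count alone (0.44, adjusted p = 0.284) and using MII library numbers of 20 and over (adjusted p = 0.0687), and gave 0.44 ± 0.29 in vitrified ones (adjusted p = 0.201). Its partner Ehmt2 was near the detection limit, at 0.183 ± 0.314 CPM in vitrified MII oocytes and 2.08 ± 1.38 CPM in vitrified GV oocytes (log2 fold change -3.40 ± 1.12, adjusted p = 0.00978). That call was lost using MII library numbers of 20 and over (adjusted p = 0.0887) and with genes of whole MII values only (adjusted p = 0.0622). In fresh oocytes Ehmt2 was at 1.05 ± 1.29 CPM in MII and 2.43 ± 2.05 CPM in GV oocytes and did not pass (adjusted p = 0.393). Setdb2 was called higher in vitrified follicles, with 0.79 ± 0.32 (adjusted p = 0.0364) there and -0.29 ± 0.30 (adjusted p = 0.443) in fresh ones, and held that call in 8 of the 16 fits that left out 1 oocyte, where the others gave adjusted p between 0.0526 (without MII vitrified replicate 6) and 0.127 (without GV vitrified replicate 4). It lost the call with total count alone (0.30, adjusted p = 0.436), with DESeq2's size factors (adjusted p = 0.067) and using MII library numbers of 20 and over (adjusted p = 0.199).

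None of the 4 H3K36 methyltransferases was called after either treatment, although Nsd3 passed in vitrified follicles with total count alone (-1.12, adjusted p = 0.0107). Setd2, which trimethylates H3K36, averaged 57.5 ± 15.4 CPM in vitrified MII oocytes and 53.1 ± 11.1 CPM in vitrified GV oocytes, and 56.9 ± 19.8 CPM in fresh MII oocytes and 47.6 ± 17.7 CPM in fresh GV oocytes. The 95% interval of its log2 fold change ran from -0.46 to 0.69 in vitrified and from -0.33 to 0.84 in fresh follicles. Nsd1 gave -0.66 ± 0.35 in vitrified (adjusted p = 0.112) and -0.18 ± 0.36 in fresh follicles (adjusted p = 0.7). In MII oocytes of the lower library numbers (under 20) the vitrified value of Nsd1 was -1.19 (adjusted p = 0.00138), and in those of 20 and over it was -0.10 (adjusted p = 0.849). Without MII vitrified replicate 11 it was -0.81 (adjusted p = 0.0386), and with total count alone -1.08 (adjusted p = 0.0182). It also passed with DESeq2 (adjusted p = 0.0448) and with its size factors (adjusted p = 0.0408). Dot1l, the H3K79 methyltransferase, gave 0.83 ± 0.39 in vitrified (adjusted p = 0.0698) and 0.61 ± 0.39 in fresh follicles (adjusted p = 0.189), and passed without GV vitrified replicate 4 (adjusted p = 0.0395) and without GV fresh replicate 4 (adjusted p = 0.0492). It passed too in vitrified follicles with a stricter filter (adjusted p = 0.0457) and with the 2 vitrified groups alone (adjusted p = 0.048), and in fresh ones with MII library numbers under 20 (0.95, adjusted p = 0.0493).

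Setd3, a SET-domain enzyme that methylates actin rather than histones, was lower, with a log2 fold change of -1.35 ± 0.42 (adjusted p = 0.00591) in vitrified and -1.07 ± 0.42 (adjusted p = 0.032) in fresh follicles. The vitrified call was lost without GV vitrified replicate 3 (adjusted p = 0.0592), and the fresh call without GV fresh replicate 2 or 4 (adjusted p = 0.0581 and 0.217) or MII fresh replicate 4 (adjusted p = 0.0526). With genes of whole MII values only, Setd3 gave -0.50 (adjusted p = 0.355) in vitrified and -0.26 (adjusted p = 0.666) in fresh follicles. The fresh call was also lost with either series of MII library numbers alone (adjusted p = 0.0895 for those under 20 and 0.0673 for the others).

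The paired acetyltransferases Crebbp and Ep300, which acetylate H3K27, differed little or marginally between stages. Crebbp was at 66.6, 119 and 153 CPM in vitrified MII oocytes, against 73.6, 102, 121 and 149 CPM in vitrified GV oocytes, and at 82.6, 114 and 185 CPM in fresh MII oocytes, against 117, 146, 84.3 and 151 CPM in fresh GV oocytes. The groups overlapped fully, and the 95% interval of the log2 fold change was -0.38 to 0.50 in vitrified and -0.46 to 0.42 in fresh follicles. Ep300 gave 0.64 ± 0.31 in vitrified (adjusted p = 0.074) and 0.73 ± 0.31 in fresh follicles (adjusted p = 0.0467). The fresh call of Ep300 held in 6 of 16 fits that left out 1 oocyte, and without GV fresh replicate 3 the adjusted p was 0.173. It was lost with total count alone (0.29, adjusted p = 0.469), with DESeq2 (adjusted p = 0.0816), with its size factors (adjusted p = 0.109), using MII library numbers of 20 and over (adjusted p = 0.22) and in a fit of the 2 fresh groups alone (adjusted p = 0.0913). In vitrified follicles Ep300 passed with a stricter filter (adjusted p = 0.0437) and with genes of whole MII values only (1.49, adjusted p = 0.000258). Kat5, the catalytic subunit of the TIP60 complex, was at 10.1 ± 4.97 CPM in vitrified MII oocytes and 14.7 ± 7.85 CPM in vitrified GV oocytes, and at 13.4 ± 3.14 CPM in fresh MII oocytes and 12.8 ± 2.67 CPM in fresh GV oocytes. It was called after neither treatment (adjusted p = 0.196 and 0.886), it passed in vitrified follicles with total count alone (-1.03, adjusted p = 0.0211), and 12.1% of its exon bases overlap Rnaseh2c on the other strand.

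Among the demethylases, 6 of 16 tested were higher and 2 lower in vitrified follicles, and 7 were higher and 1 lower in fresh ones. That is 50% called after each treatment, beside 57% of all genes in vitrified and 52.6% in fresh follicles. Kdm7a (chr6:39136623-39206789), which removes methyl groups from H3K9 and H3K27, was at 172, 281 and 379 CPM in vitrified MII oocytes, against 47.2, 63.8, 38.0 and 36.9 CPM in vitrified GV oocytes. It was at 174, 244 and 428 CPM in fresh MII oocytes, against 67.4, 55.3, 47.9 and 40.5 CPM in fresh GV oocytes. The stages lay apart, with log2 fold changes of 2.62 ± 0.26 in vitrified (adjusted p = 1.41e-10) and 2.32 ± 0.25 in fresh follicles (adjusted p = 1.58e-09), with the lowest adjusted p among the erasers.

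Kdm6a (chrX:18162575-18279936), the X-linked H3K27 demethylase UTX, was at 264, 360 and 490 CPM in vitrified MII oocytes, against 100.5, 143, 101 and 119 CPM in vitrified GV oocytes. It was at 239, 343 and 526 CPM in fresh MII oocytes, against 116, 155, 53.8 and 47.5 CPM in fresh GV oocytes. All MII oocytes were higher, by 1.64 ± 0.25 (adjusted p = 7.16e-07) in vitrified and 1.92 ± 0.25 (adjusted p = 6.12e-08) in fresh follicles on the log2 scale. The other H3K27 demethylase, Kdm6b, had lower means in MII oocytes. It averaged 41.1 ± 20.1 CPM in vitrified MII and 67.1 ± 40.3 CPM in vitrified GV oocytes, and 43.2 ± 21.2 CPM in fresh MII and 83.3 ± 42.3 CPM in fresh GV oocytes. The log2 fold changes of Kdm6b were -0.71 ± 0.43 (adjusted p = 0.159) in vitrified and -0.95 ± 0.42 (adjusted p = 0.0591) in fresh follicles, so it was not called. It passed without GV vitrified replicate 1 (adjusted p = 0.0338) in vitrified follicles, and without GV fresh replicate 3 (adjusted p = 0.0261), MII fresh replicate 2 (adjusted p = 0.0449) or MII fresh replicate 7 (adjusted p = 0.0317) in fresh ones. Kdm6b passed with total count alone in vitrified (-1.31, adjusted p = 0.00885) and fresh follicles (-1.39, adjusted p = 0.00637). So it did using MII library numbers of 20 and over (-1.28, adjusted p = 0.036, in vitrified and -1.74, adjusted p = 0.00706, in fresh follicles). In fresh follicles it also passed with DESeq2 (adjusted p = 0.0284), with its size factors (adjusted p = 0.0271) and in a fit of the 2 fresh groups alone (adjusted p = 0.0469).

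Kdm1b (chr13:47043499-47085279), the H3K4 demethylase needed in growing oocytes for maternal imprints, was at 77.5, 168 and 306 CPM in vitrified MII oocytes, against 43.4, 67.8, 66.0 and 65.0 CPM in vitrified GV oocytes. It was at 119.6, 165 and 309 CPM in fresh MII oocytes, against 49.4, 78.7, 32.6 and 28.6 CPM in fresh GV oocytes. Within each treatment the ranges did not overlap, although the lowest vitrified MII oocyte lay below GV fresh replicate 2, and the log2 fold changes were 1.51 ± 0.31 in vitrified (adjusted p = 7.43e-05) and 1.95 ± 0.31 in fresh follicles (adjusted p = 2.91e-06). Its values were not whole in any of the 24 MII oocytes, and 9.19% of its exon bases overlap Dek on the other strand. Kdm1a, the other FAD-dependent H3K4 demethylase, averaged 134 ± 32.3 CPM in vitrified MII oocytes and 73.9 ± 25.9 CPM in vitrified GV oocytes (log2 fold change 0.86 ± 0.27, adjusted p = 0.00711). It averaged 132 ± 38.5 CPM in fresh MII oocytes and 77.8 ± 29.0 CPM in fresh GV oocytes (log2 fold change 0.76 ± 0.27, adjusted p = 0.0181), a call lost without GV fresh replicate 1 or 3 (adjusted p = 0.0601 and 0.0945) or using MII library numbers of 20 and over (adjusted p = 0.104). Kdm1a was called after neither treatment with total count alone (0.39, adjusted p = 0.245, in vitrified and 0.34, adjusted p = 0.329, in fresh follicles).

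Kdm4a (chr4:118136957-118180043), which acts on trimethylated H3K9 and H3K36, was at 17.5, 63.3 and 147 CPM in vitrified MII oocytes, against 2.59, 11.1, 4.81 and 17.2 CPM in vitrified GV oocytes. It was at 31.4, 78.1 and 145 CPM in fresh MII oocytes, against 2.92, 13.5, 6.73 and 22.1 CPM in fresh GV oocytes. The spread among oocytes was wide. Within each treatment the stages did not overlap, narrowly so in vitrified follicles, while GV fresh replicate 4, at 22.1 CPM, lay above the lowest vitrified MII oocyte (log2 fold change 2.93 ± 0.56, adjusted p = 3.37e-05, in vitrified and 2.80 ± 0.56, adjusted p = 6.28e-05, in fresh follicles). Its relatives were scarce, with Kdm4b at or under 7.71 CPM, Kdm4c at or under 3.69 CPM and Kdm4d at or under 2.70 CPM in every oocyte. Kdm4b was called lower in vitrified follicles, at 0.318 ± 0.705 CPM in MII and 3.11 ± 3.22 CPM in GV oocytes (adjusted p = 0.0121, 0.123 without GV vitrified replicate 3, 0.13 using MII library numbers of 20 and over and 0.0722 with genes of whole MII values only). No H3K4 demethylase of the Kdm5 group was called, although Kdm5c passed when MII library numbers of 20 and over were used in vitrified (1.27, adjusted p = 0.0327) and those under 20 in fresh follicles (1.07, adjusted p = 0.0446). Kdm5b averaged 11.9 ± 5.11 CPM in vitrified MII oocytes and 11.0 ± 3.03 CPM in vitrified GV oocytes, and 8.05 ± 5.76 CPM in fresh MII oocytes and 9.08 ± 2.26 CPM in fresh GV oocytes. Kdm8, a JmjC protein, was also called higher after both treatments, with means of 13.2 and 13.1 CPM in vitrified and fresh MII oocytes and of 4.34 and 2.04 CPM in vitrified and fresh GV oocytes. Its vitrified call was lost with total count alone (1.07, adjusted p = 0.0763) and using MII library numbers of 20 and over (1.21, adjusted p = 0.137).

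Kdm2b, an H3K36 demethylase that also recruits Polycomb complexes to CpG islands, was lower in MII oocytes. It was at 6.95, 29.2 and 134 CPM in vitrified MII oocytes, against 172, 179, 164 and 153 CPM in vitrified GV oocytes, and at 10.4, 54.4 and 115 CPM in fresh MII oocytes, against 201, 228, 81.4 and 139 CPM in fresh GV oocytes. Its coefficient of variation of 93.2% in vitrified MII oocytes was the highest there among the members with a mean of at least 16 CPM. The log2 fold change was -1.90 ± 0.53 in vitrified (adjusted p = 0.00263) and -1.48 ± 0.54 in fresh follicles (adjusted p = 0.02). The fresh call was lost without GV fresh replicate 1 or 2 (adjusted p = 0.0596 and 0.0807), the vitrified call using MII library numbers of 20 and over (-1.33, adjusted p = 0.0699), and values were not whole in 23 of 24 MII oocytes.

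Of the 7 deacetylases, 1 was higher and 1 lower in vitrified follicles, and 2 were higher and 1 lower in fresh ones. That is 28.6% called in vitrified and 42.9% in fresh follicles, beside 57% and 52.6% of all genes. Hdac2 was at 92.1, 109 and 152 CPM in vitrified MII oocytes, against 134, 91.7, 83.8 and 86.4 CPM in vitrified GV oocytes, and at 79.4, 118 and 156 CPM in fresh MII oocytes, against 59.1, 44.4, 88.5 and 61.3 CPM in fresh GV oocytes. The MII groups overlapped, and the fresh GV group was the lowest of the 4. The log2 fold change was 0.23 ± 0.20 in vitrified (adjusted p = 0.354) and 0.89 ± 0.21 in fresh follicles (adjusted p = 0.000588). Hdac8, an X-linked class I deacetylase, was lower in both, with a log2 fold change of -0.89 ± 0.32 (adjusted p = 0.0183) in vitrified and -0.97 ± 0.32 (adjusted p = 0.0109) in fresh follicles. These calls were lost without GV vitrified replicate 1 (adjusted p = 0.175) and without GV fresh replicate 3 (adjusted p = 0.122). They were lost as well with MII library numbers under 20 in vitrified (adjusted p = 0.0818) and of 20 and over in fresh follicles (-0.59, adjusted p = 0.204). With genes of whole MII values only, Hdac8 gave -0.06 (adjusted p = 0.9) in vitrified and -0.18 (adjusted p = 0.716) in fresh follicles. Hdac9, a class II deacetylase, was higher by 2.44 ± 0.56 (adjusted p = 0.000389) in vitrified and 1.63 ± 0.54 (adjusted p = 0.0106) in fresh follicles, at a low level of 9.86 and 7.61 CPM on average in vitrified and fresh MII oocytes. Its fresh call was lost without GV fresh replicate 1 or 4 (adjusted p = 0.0513 and 0.0551) or with MII library numbers under 20 (adjusted p = 0.0665). Hdac1 averaged between 2.07 and 3.28 CPM in the 4 groups and Hdac3 between 16.5 and 29.5 CPM, and neither was called, although Hdac3 passed in fresh follicles without GV fresh replicate 2 (adjusted p = 0.0191). With genes of whole MII values only Hdac3 passed in vitrified (1.15, adjusted p = 0.0071) and fresh follicles (1.47, adjusted p = 0.0011).

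The MII oocytes carry library numbers under 20 or of 20 and over. With MII oocytes of each series alone, 17 of the 26 calls in vitrified follicles held in both series. In fresh follicles 19 of the 28 calls did. The same share over all genes was not counted. The 12 members named above as kept throughout are among the calls that held by definition, since each series alone was 1 of the alternatives. Setd4 gave -6.07 with the lower and -6.90 with the higher library numbers in vitrified follicles, and -5.78 and -6.55 in fresh ones. Ezh2 gave 1.61 and 1.25 in vitrified follicles, and 1.504 and 1.435 in fresh ones.

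The comparison of vitrified with fresh follicles asks whether vitrification before culture left a difference in these transcripts. In GV oocytes none of 57 members tested was called, and neither was any of all 10831 genes (0%). At an unadjusted p under 0.05, 1 member passed, beside 180 of all genes (1.66%). DESeq2 called 1 of all genes and no member. The member was Kmt2e, a SET-domain protein of the Kmt2 group, at 43.9, 17.1, 32.5 and 25.2 CPM in vitrified and 22.9, 16.05, 9.95 and 12.4 CPM in fresh GV oocytes. Its unadjusted p was under 0.05 in only 5 of the 15 alternatives, with log2 fold changes between 0.53 and 1.25. Of its exon bases 9.31% overlap Srpk2 on the other strand. The groups overlapped, and the log2 fold change was 0.96 (95% interval 0.02 to 1.91, adjusted p = 1.00).

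The other members with the lowest p in GV oocytes were Hdac2, Setdb2, Kdm3a and Hdac6, and all overlapped between groups. Hdac2, with the values given above, had a log2 fold change of 0.66 (-0.03 to 1.36). Setdb2 was at 17.3, 23.2, 14.3 and 12.2 CPM in vitrified and 37.5, 17.1, 48.5 and 15.5 CPM in fresh GV oocytes (log2 fold change -0.81, interval -1.81 to 0.18). The H3K9 demethylase Kdm3a was at 10.9, 1.36, 2.60 and 3.29 CPM in vitrified and 2.31, 0.333, 1.11 and 2.10 CPM in fresh GV oocytes (1.65, interval -0.43 to 3.72). Hdac6, which deacetylates tubulin in the cytoplasm, was at 5.90, 8.71, 16.2 and 18.3 CPM in vitrified and 6.97, 8.48, 4.42 and 8.84 CPM in fresh GV oocytes (0.78, interval -0.35 to 1.92). The precision at 4 oocytes a group was limited, since the 95% interval lay within 1 log2 unit of 0 for 18 of the 57 members, among them Ezh2 (-0.41 to 0.80), Kat8 (-0.37 to 0.73) and Setd4 (-0.79 to 0.40).

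In MII oocytes none of 52 members was called, and neither was any of all 8428 genes (0%). At an unadjusted p under 0.05, 3 members passed, beside 1053 of all genes (12.5%). DESeq2 called 76 of all genes and no member. The 3 members were writers, and all were lower in vitrified MII oocytes with overlapping ranges. Kat6b was at 44.6, 73.4 and 89.1 CPM (lowest, median and highest) in vitrified and 44.1, 101 and 152 CPM in fresh MII oocytes. Its log2 fold change was -0.49 (95% interval -0.83 to -0.15, adjusted p = 0.257). Kmt2d was at 13.6, 34.9 and 75.0 CPM in vitrified and 16.8, 55.0 and 166 CPM in fresh MII oocytes, with -0.83 (-1.55 to -0.11, adjusted p = 0.346). Nsd1 was at 32.1, 64.2 and 151 CPM in vitrified and 40.4, 89.2 and 204 CPM in fresh MII oocytes, with -0.62 (-1.17 to -0.08, adjusted p = 0.348).

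These values differed between the series of library numbers, a difference that was not tested. Kmt2d had a log2 fold change of -1.55 ± 0.40 (SE) among oocytes with library numbers under 20 and of 0.56 ± 0.39 among those of 20 and over. Nsd1 had -1.11 ± 0.27 and -0.17 ± 0.39, and Kat6b -0.64 ± 0.21 and -0.29 ± 0.28. Setd6, which methylates the transcription factor RelA, and Hdac4, a class II deacetylase, were the next members by p. Setd6 was at 31.7, 45.5 and 62.4 CPM in vitrified and 11.2, 34.4 and 60.8 CPM in fresh MII oocytes (log2 fold change 0.41, adjusted p = 0.402). Hdac4 was at 5.94, 11.1 and 17.1 CPM in vitrified and 3.86, 7.26 and 15.4 CPM in fresh MII oocytes (0.49, adjusted p = 0.416), and 22.4% of its exon bases overlap the antisense gene Gm26720.

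With 12 oocytes a group the intervals were narrower, and 38 of 52 lay within 1 log2 unit of 0. The interval was -0.03 to 0.45 for Ezh2, -0.06 to 0.48 for Kat7, -0.01 to 0.55 for Kmt5a, -0.20 to 0.28 for Kdm6a, -0.18 to 0.42 for Kdm7a, -0.45 to 0.31 for Kdm1b, -0.29 to 0.25 for Hdac2 and -0.36 to 0.20 for Crebbp. Setd4, at its low MII level, had -1.04 to 0.08. The median log2 fold change in MII oocytes was -0.16 for writers and -0.04 for erasers, beside -0.05 for all genes. In GV oocytes it was 0.03 for writers and 0.16 for erasers, beside 0.00 for all genes.

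**Figure D4:**
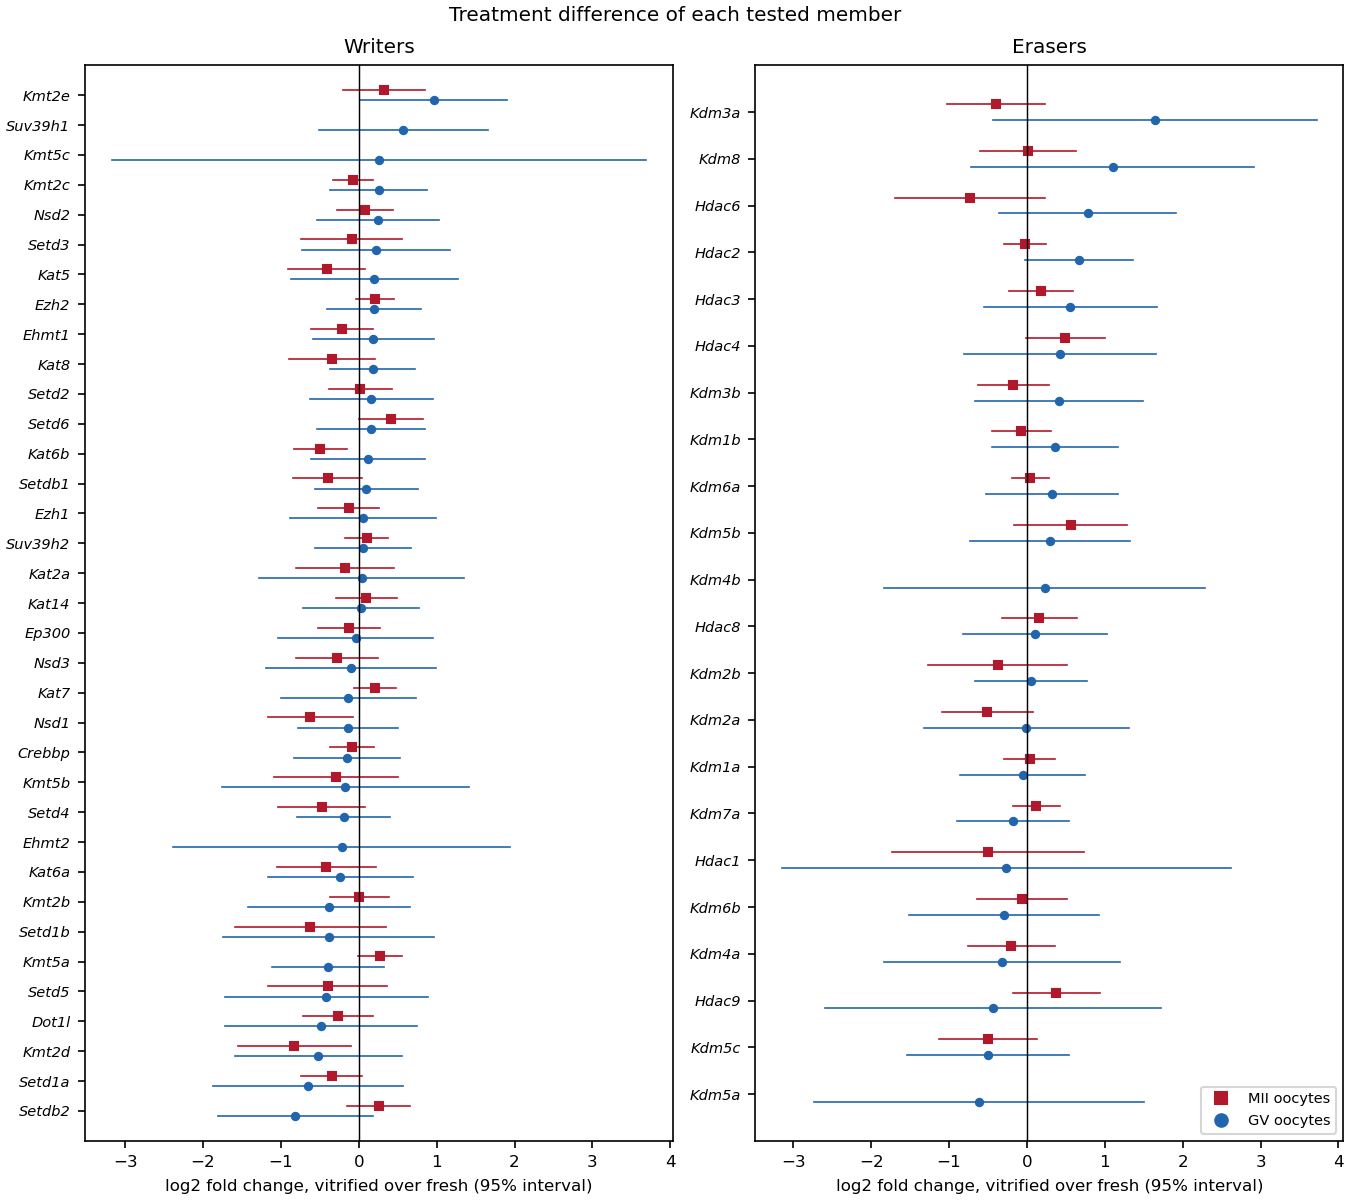
Log2 fold change, vitrified over fresh, of each tested writer (left) and eraser (right) with its 95% interval, in MII oocytes (squares) and GV oocytes (circles). All members are ordered by the GV value, no adjusted p was under 0.05, and the MII intervals are narrower, with 38 of 52 inside 1 log2 unit of 0 against 18 of 57 in GV oocytes.

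The interaction tests whether the difference between MII and GV oocytes was itself different in vitrified follicles. None of 58 members was called, and neither was any of all 11470 genes (0%). At an unadjusted p under 0.05, 4 members passed, beside 467 of all genes (4.07%), and DESeq2 called 8 of all genes and no member. Members called after only 1 treatment, such as Hdac2 or Setdb2, are therefore not shown to differ between treatments. The 4 members were Kdm3a (-2.01 ± 0.74 on the log2 scale, adjusted p = 0.948), Setdb2 (1.08 ± 0.44), Hdac2 (-0.67 ± 0.28) and Kmt5a (0.67 ± 0.30), the last 3 with an adjusted p of 1.00. Kdm3a was at 7.98 ± 3.87 CPM in vitrified MII oocytes and 4.54 ± 4.32 CPM in vitrified GV oocytes, and at 10.5 ± 5.52 CPM in fresh MII oocytes and 1.46 ± 0.918 CPM in fresh GV oocytes. Its stage difference passed in fresh follicles (2.83 ± 0.62, adjusted p = 0.000217) and not in vitrified ones (0.82 ± 0.54, adjusted p = 0.198), where it passed without GV vitrified replicate 1 (1.75, adjusted p = 0.0162) and with genes of whole MII values only (1.62, adjusted p = 0.0173).

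The proteins that work with these enzymes were followed through a list of 114 partner genes, of which 110 were in the table and 108 were tested between stages. Of these, 39 were higher and 32 lower in vitrified MII oocytes (65.7%, beside 57% of all genes), and 34 were higher and 28 lower in fresh MII oocytes (57.4%, beside 52.6%). In vitrified follicles the 9 PRC2 partners gave 5 higher and 2 lower, the 10 COMPASS partners of the H3K4 methyltransferases 4 and 3, the 22 deacetylase corepressor partners 9 and 5, and 31 acetyltransferase partners 9 and 10. In fresh follicles the same lists gave 3 higher and 2 lower, 3 and 3, 9 and 4, and 9 and 10. Of 19 other writers outside the rule 9 were higher and 5 lower in vitrified follicles and 7 and 4 in fresh ones, of 11 other erasers 1 and 6, and 2 and 4, and of 6 readers 2 and 1, and 1 and 1.

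A few partners, picked after their values were seen, show the range. Rbbp7, a histone-binding subunit of PRC2 and of deacetylase complexes, averaged 15372 ± 3589 CPM in vitrified MII oocytes and 2365 ± 938 CPM in vitrified GV oocytes, and 11976 ± 1772 CPM in fresh MII oocytes and 1656 ± 509 CPM in fresh GV oocytes, and was higher after both treatments (adjusted p = 2.37e-11 in vitrified and 1.08e-11 in fresh follicles). Suz12, a core subunit of PRC2, went the other way, at 98.2 ± 47.8 CPM in vitrified MII and 156 ± 42.7 CPM in vitrified GV oocytes, and 97.9 ± 25.1 CPM in fresh MII and 165 ± 57.2 CPM in fresh GV oocytes (adjusted p = 0.0364 in vitrified and 0.0205 in fresh follicles). Eed, the other core subunit, was called after neither treatment (adjusted p = 0.705 and 0.215). Sgf29 and Meaf6, partners of acetyltransferases, were lower, with Sgf29 at 11.6 ± 2.80 CPM in vitrified MII and 309 ± 45.6 CPM in vitrified GV oocytes, and Meaf6 at 2.00 ± 0.712 CPM in vitrified MII and 117 ± 42.5 CPM in vitrified GV oocytes. In fresh follicles Sgf29 was at 16.9 ± 8.41 CPM in MII and 323 ± 87.7 CPM in GV oocytes, and Meaf6 at 3.58 ± 2.64 CPM in MII and 103 ± 24.3 CPM in GV oocytes. Wdr5, the shared core of the COMPASS complexes, averaged 218 ± 70.8 CPM in vitrified MII and 119 ± 29.1 CPM in vitrified GV oocytes (adjusted p = 0.00902), and 208 ± 59.2 CPM in fresh MII and 167 ± 77.5 CPM in fresh GV oocytes (adjusted p = 0.349).

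In the treatment comparisons none of the 102 partner genes tested in GV oocytes and none of the 96 tested in MII oocytes was called. At an unadjusted p under 0.05 there were 0 in GV oocytes, beside 1.66% of all genes, and 13 in MII oocytes, beside 12.5% of all genes. In the interaction 2 of 108 passed at that level, beside 4.07%.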

How the data were processed

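RNA of single mouse oocytes had been converted with a SMART-Seq kit that primes on poly(A) tails, is not stranded and carries no molecular identifiers. Per the submitters' processing notes, reads were mapped to mm10 with HISAT2 and assigned to genes with featureCounts. The deposited table holds whole counts for GV oocytes. For MII oocytes its deposited values are expected counts, judged from the values, of which between 11.7% and 19.7% per oocyte were not whole, and what produced them was not given in the sources used here. These estimated counts were rounded to whole numbers. The deposited table held 13202 entries, of which 27 exact repeats were removed, and lists genes with a total of at least 10 counts over MII oocytes, with 376 of them at 0 in all GV oocytes. Differences were tested with edgeR 4.0.16 (TMM scaling, filterByExpr with a minimum count of 10, quasi-likelihood F test, two-sided, prior count 0.125, Benjamini-Hochberg adjustment over all genes tested, 0.05) within the 8 GV oocytes, within the 24 MII oocytes, and in 1 fit of all 32 oocytes with 4 group means for the stage comparisons and the interaction. The design had assumed whole counts throughout. Exon lengths, overlaps and 3′ ends came from GENCODE M21 and matched all 62 members. The members and lists were chosen with earlier results of these data known. Genes given values were, per stage comparison, the 5 writers and 5 erasers with the smallest p in each direction among those called at a mean of at least 16 CPM, the 5 members with the smallest p per treatment comparison and interaction, 24 members fixed by name, and members dropped or changed by a setting; the other genes named were chosen after their values were seen. The labels call the samples biological replicates and do not tie them to mice or cultures, so p-values measure the spread between these oocytes. Alternatives were DESeq2 1.42.0, other scalings and filters, a replicate block, subsets of oocytes or genes and leaving out each oocyte. Scripts were tested on simulated data. Without molecular identifiers, reads are not independent molecules.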

Additional observations from a re-analysis of the deposited data

Results flagged for a closer look

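In groups of 4 GV oocytes, 84 groups of member values were screened for 1 oocyte far from the other 3, and 3 were found (3.57%), while chance flags about 1 in 20 groups. Hdac2 was at 134 CPM in GV vitrified replicate 1, above the other vitrified GV oocytes at 83.8 to 91.7 CPM. Kdm1b was at 43.4 CPM in the same oocyte, below the others at 65.0 to 67.8 CPM. Ep300 was at 7.46 CPM in GV fresh replicate 3, below the other fresh GV oocytes at 15.6 to 15.9 CPM. These are also the GV oocytes least like the rest of their stage.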

How the results depend on the processing

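Direction and call were kept by the 12 members named as kept in every alternative that tested them. The alternative with genes of whole MII values only tested just Setd4 and Kat8 of these. Whole MII values were held by 29 members, but the filter on low counts again dropped Kat2b, Kdm4d, Kmt2a and Setd7 from these. Library sizes came from fewer genes, and 6599 of all genes were tested. The called counts with genes of whole MII values only were 9 members in vitrified follicles (3 writers higher, 2 lower, 4 erasers higher, 0 lower, 3072 of all genes). In fresh follicles 9 members were called (2, 2, 5, 0 and 2692). The eraser median was 0.91 in vitrified follicles. With total count alone, writers in vitrified follicles gave 4 higher and 14 lower and erasers 5 lower, and 5 writers were higher in fresh ones. With DESeq2's size factors 5 writers were higher in vitrified follicles. With MII library numbers under 20, 4 writers were lower in fresh follicles. In the treatment and interaction tests all-gene calls were 76 (MII) and 1 (GV) by DESeq2, 1 in MII with total count alone or the stricter filter, and in the interaction 3 with DESeq2's size factors, 2 with the stricter filter, 3 with whole values only and 8 by DESeq2, with no member called in any. The labels do not say that replicate numbers pair the oocytes. The correlation of same-numbered MII oocytes ran from -0.48 to 0.48 and was above 0.1 in 6 of 12 pairs. In GV oocytes it was above 0.1 in 2 of 4 pairs. Across stages it was above 0.1 in 0 of 4 pairs in vitrified and 2 of 4 in fresh follicles. This cut cannot settle whether the oocytes pair, and pairs by library number were not examined. With the replicate block 5 writers were higher in vitrified follicles, and 4 writers and 1 eraser were lower in fresh ones. It ended the calls of Hdac8, Kat6b, Kmt2c, Setd1b and Setdb2 in vitrified follicles (adjusted p = 0.0876 to 0.164) and of Ehmt1, Ep300, Hdac8, Hdac9, Kdm1a, Kmt2b, Setd1a, Setd3 and Setdb1 in fresh ones (adjusted p = 0.0559 to 0.192), and Nsd1 passed in vitrified follicles (-1.16, adjusted p = 0.0141). Leaving out 1 oocyte gave 21 to 27 members in vitrified follicles (writers 5 to 8 higher and 6 to 9 lower, erasers 7 to 8 higher and 2 to 3 lower, 6032 to 6596 of all genes) and 23 to 29 in fresh ones (7 to 9, 5 to 9, 7 to 10, 1 to 3, and 5413 to 6251). It gave 0 to 1 of all genes in MII oocytes, 0 in GV oocytes and 0 to 4 in the interaction, and 0 members in each. Without the 2 GV oocytes that stand apart, an alternative chosen after seeing the data, Hdac8 (adjusted p = 0.214) was not called in vitrified follicles, where Kdm3a, Kdm6b and Setd1a passed, and Ehmt1 (adjusted p = 0.0533), Ep300 (0.124), Kdm1a (0.0658) and Hdac8 (0.146) were not called in fresh follicles, where Kdm6b and Setd1b passed. Depth limits the members under about 3 CPM.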
